A study of Arabidopsis thaliana with 24 samples.

Results

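Myrosinases and specifier proteins carry out the last step of the glucosinolate defence of Arabidopsis and its relatives. Glucosinolates are sulphur-containing thioglucosides that stay inert until a myrosinase, a thioglucosidase, removes the glucose. The unstable product rearranges to a toxic isothiocyanate by default, and specifier proteins divert it to nitriles or epithionitriles instead. The genes described here, 8 in all, were chosen by locus identifier: the myrosinases TGG1, TGG2 and PEN2, the epithiospecifier protein ESP, the epithiospecifier modifier ESM1, and the nitrile specifier proteins NSP1, NSP2 and NSP5. Of these, 5 are in the expression table of 20514 loci, and 4 of them (PEN2, ESP, ESM1 and NSP5) lay above the filter on low values that left 12308 loci for testing. NSP2 fell below that filter. TGG1, TGG2 and NSP1 are not analysed here, so the classical leaf myrosinases are outside every result below.

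Rosette leaves came from 2 natural accessions of Arabidopsis thaliana, Tsu-1 and Kas-1, grown singly in pots under a 10 h photoperiod. The groups were Tsu-1 in drying soil, Tsu-1 in wet soil, Kas-1 in drying soil and Kas-1 in wet soil, with 6 arrays each, and no group carried a transgene or mutation by the labels. Drying pots were lowered in daily steps to about 50% of their water on day 5, and wet pots were kept near 90%. The design text speaks of 3 biological replicates per combination while 24 arrays were made, and the labels do not say which arrays came from separate plants, so the errors are between arrays and may in part be technical. All levels are log2 expression values as deposited, and levels of different genes are not compared with each other.

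Array medians lay between 6.77 and 6.87, and arrays of a group correlated at 0.872 to 0.995 across the tested loci. Arrays that stood apart, with limma array weights under 0.5, were Tsu-1 wet 7 (0.358), Tsu-1 wet 9 (0.314), Kas-1 dry 1 (0.416) and Kas-1 dry 2 (0.283). For the members, some values are also given without these arrays. The mesophyll markers RCA and PSBO1, the 2 tested of 6 listed, were at means of 13.54 and 13.16. All 3 trichome, 4 root and 4 flower markers lay below the filter. The filter stood at 6.195 and the lower quartile of all loci at 5.21. The highest root marker mean was 6.193, just under the filter.

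PEN2 (AT2G44490) was higher in Tsu-1 leaves than in Kas-1 leaves. PEN2 is an atypical myrosinase that acts on indole glucosinolates inside living cells, and it is known for restricting the entry of fungi. In wet soil, its lowest, median and highest levels were 10.96, 11.49 and 11.65 in Tsu-1, against 10.54, 10.73 and 10.88 in Kas-1. In dry soil they were 11.10, 11.21 and 11.56 in Tsu-1, against 10.45, 10.82 and 11.39 in Kas-1. All 6 wet Tsu-1 arrays lay above all 6 wet Kas-1 arrays, whereas in dry soil the accessions overlapped and 1 of 6 Tsu-1 arrays lay above every Kas-1 array. Taking Tsu-1 over Kas-1, the log2 difference was 0.53 as the mean of both soils (SE 0.098, 1.44-fold, limma adjusted p = 1.56e-04), 0.66 in wet soil (SE 0.14, adjusted p = 0.00128) and 0.40 in dry soil (SE 0.14, adjusted p = 0.0341). Without the 4 arrays of low weight these were 0.56, 0.55 and 0.58, all called. The dry-soil call was lost in 3 other settings and in 7 of 24 fits with 1 array left out, namely without Kas-1 dry 3, 4, 5 or 6 or without Tsu-1 dry 1, 2 or 4, where adjusted p was at most 0.0967.

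NSP5 (AT5G48180), a nitrile specifier protein that favours simple nitriles, was likewise higher in Tsu-1. In wet soil its lowest, median and highest levels were 8.05, 8.23 and 8.61 in Tsu-1, against 7.45, 7.82 and 7.95 in Kas-1. In dry soil they were 8.04, 8.37 and 8.77 in Tsu-1, against 7.63, 7.96 and 8.08 in Kas-1. The wet groups did not overlap, and in dry soil 5 of 6 Tsu-1 arrays lay above every Kas-1 array. The difference was 0.50 averaged over the soils (SE 0.086, 1.42-fold, limma adjusted p = 5.77e-05), 0.49 in wet soil (SE 0.12, adjusted p = 0.00436) and 0.52 in dry soil (SE 0.12, adjusted p = 0.00282). Without the arrays of low weight it was 0.40 in wet soil (adjusted p = 0.0259) and 0.61 in dry soil (adjusted p = 7.81e-04). The call held in every alternative and with each array left out.

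ESP (AT1G54040), which together with a myrosinase turns glucosinolates that have a terminal double bond into epithionitriles, did not pass the test between accessions. In wet soil its lowest, median and highest levels were 12.47, 12.73 and 13.11 in Tsu-1, against 12.83, 12.93 and 13.10 in Kas-1. In dry soil they were 12.06, 13.06 and 13.16 in Tsu-1, against 12.98, 13.05 and 13.27 in Kas-1. The groups overlapped in both soils, and a single array, Tsu-1 dry 4, gave the level of 12.06. The averaged difference was -0.19 (95% interval -0.40 to 0.026, limma adjusted p = 0.139), and -0.11 without that array, so a difference larger than 0.40 on the log2 scale in favour of Kas-1 lies outside the interval.

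ESM1 (AT3G14210), a lipase-like protein that favours isothiocyanates over the nitriles that ESP would form, had the largest SD of the 5 genes in 3 of the 4 groups, all but dry Tsu-1. In wet soil its lowest, median and highest levels were 7.99, 9.51 and 10.07 in Tsu-1, against 9.32, 9.46 and 10.14 in Kas-1. In dry soil they were 8.50, 9.03 and 9.34 in Tsu-1, against 8.46, 9.24 and 9.46 in Kas-1. Accessions overlapped in both soils, and the SD of the wet Tsu-1 arrays was 0.85. The averaged difference was -0.21 (SE 0.20, 95% interval -0.63 to 0.20, limma adjusted p = 0.403). It was -0.078 without the 4 low-weight arrays and -0.086 without Tsu-1 wet 9 alone. In wet soil it was -0.34 with all arrays and 0.16 without the 4 low-weight arrays, and neither value was called. In dry soil it was -0.084 with all arrays and -0.32 without the 4 low-weight arrays, again with neither called.

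NSP2 (AT2G33070), another nitrile specifier protein, is best known from seeds. Its levels in the lowest, median and highest arrays were 5.74, 5.86 and 6.08 in dry Tsu-1 and 5.75, 5.85 and 6.13 in wet Tsu-1. In Kas-1 they were 5.72, 5.94 and 6.06 in dry soil and 5.39, 5.73 and 6.00 in wet soil. All 24 arrays were below the filter of 6.19, and the accessions overlapped. In the fit without a filter the averaged difference was 0.047 (SE 0.063, limma adjusted p = 0.61).

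Of the 4 members tested, 2 were thus called between accessions in the averaged comparison, both higher in Tsu-1, beside 47.7% of all tested loci called in either direction and 23.3% called higher. In wet soil it was again 2 of 4, beside 30.1% called and 13.2% called higher, and in dry soil 2 of 4, beside 30.5% and 16.8%. For PEN2 and NSP5, no overlap in wet soil compares with 5.27% of tested loci that were higher in Tsu-1 without overlap. In the averaged comparison 2 of 4 is near the share of all loci called. The median absolute difference of the 4 members was 0.36, against 0.20 for all tested loci. Bulk leaves were measured, so a difference in cell number of a type and one in RNA per cell cannot be told apart, and probe sequences are not given here, so a sequence difference between accessions under a probe cannot be told apart from a difference in transcript.

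**Figure D1:**
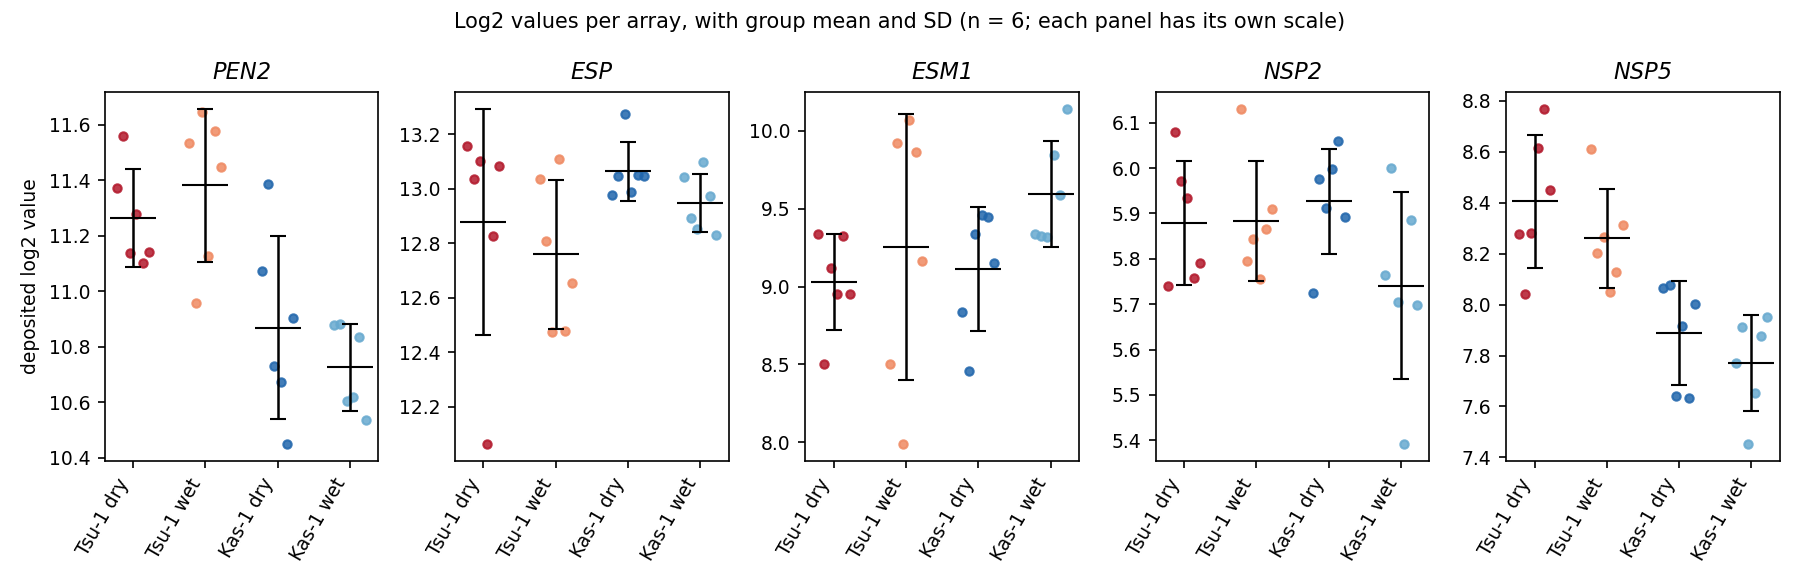
Log2 expression of PEN2, ESP, ESM1, NSP2 and NSP5 in each array, with the group mean and SD (n = 6 arrays a group), by accession and soil. All 6 wet Tsu-1 arrays lie above all 6 wet Kas-1 arrays for PEN2 and NSP5, and the accessions overlap for ESP, ESM1 and NSP2.

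Vascular markers differed in part between the accessions, whereas the mesophyll markers RCA and PSBO1 were not called in the averaged comparison (limma adjusted p = 0.623 and 0.228). The mean of 3 tested vascular markers of 4 (SUC2, a phloem sucrose transporter, and the cellulose synthases IRX3 and IRX1) ran from 8.39 to 9.04 in dry Tsu-1 and 8.44 to 8.85 in wet Tsu-1, against 8.15 to 8.37 in dry Kas-1 and 7.87 to 8.29 in wet Kas-1. SUC2 was higher in Tsu-1 by 0.74 and IRX3 by 0.56 in the averaged comparison (limma adjusted p = 6.97e-06 and 3.26e-04), while IRX1 differed by 0.15 and was not called, and XCP1 lay below the filter. These 2 called of 3 tested stand beside 47.7% of all tested loci called in either direction. The part of vascular tissue in the differences of PEN2 and NSP5 was not tested. The mean of 10 touch and wounding genes was 10.84 ± 0.21 in dry Tsu-1, 10.68 ± 0.83 in wet Tsu-1, 10.75 ± 0.43 in dry Kas-1 and 10.30 ± 0.67 in wet Kas-1 (SD, n = 6 each). In the averaged comparison 2 of the 10, CML38 and ZAT12, were called higher in Tsu-1, beside 23.3% of all tested loci called higher. The ZAT12 call (adjusted p = 0.0489) was lost without the 4 low-weight arrays (0.0887) and with Kas-1 dry 4 and 5 averaged (0.0618). With that score as a covariate, an alternative added after the data were seen, the averaged difference was 0.45 for PEN2 and 0.46 for NSP5, and both were called.

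Dry soil was set against wet soil to see how leaves differed after slow drying. None of the 4 members passed the limma test in either accession, and none was below an unadjusted p of 0.05 in any drying comparison. The comparison averaged over the accessions called 0.13% of all tested loci, with 1151 loci below an unadjusted p of 0.05. Drying in Tsu-1 called 0.00812% and drying in Kas-1 0.0731%. The largest of the 4 log2 differences was that of ESM1, at -0.35 dry minus wet averaged over the accessions (SE 0.20, 95% interval -0.76 to 0.066, adjusted p = 0.615). All 12 dry arrays lay below the median of the 12 wet arrays for ESM1, yet none lay below all of them. The log2 difference of PEN2 was 0.014 (adjusted p = 0.986, 95% interval -0.19 to 0.22), that of ESP 0.12 (adjusted p = 0.792) and that of NSP5 0.13 (adjusted p = 0.671). Without the 4 low-weight arrays the averaged differences were -0.48 for ESM1 (adjusted p = 0.172) and -0.025 for PEN2, and with the touch and wounding score as a covariate ESM1 was at -0.16.

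Within accessions, the dry minus wet difference of ESM1 was -0.22 in Tsu-1 and -0.48 in Kas-1 (limma adjusted p = 0.567 in Kas-1), with 95% intervals of -0.81 to 0.37 and -1.06 to 0.11. Without the 4 low-weight arrays the values were -0.72 in Tsu-1 (adjusted p = 0.105) and -0.24 in Kas-1. For PEN2 it was -0.12 in Tsu-1 and 0.14 in Kas-1, and for NSP5 0.15 in Tsu-1 and 0.12 in Kas-1. Without the 4 low-weight arrays it was -0.012 in Tsu-1 and -0.037 in Kas-1 for PEN2, and 0.23 in Tsu-1 and 0.028 in Kas-1 for NSP5, with none called. NSP2, in the fit without a filter, differed by 0.19 in Kas-1 (95% interval 0.0026 to 0.37, unadjusted p = 0.0471, limma adjusted p = 0.556) and by -0.0042 in Tsu-1. The interaction, the drying change in Tsu-1 minus that in Kas-1, called 0 of 4 members and 0 of the 12308 tested loci by limma, with 722 loci and no member below an unadjusted p of 0.05. It was -0.26 for PEN2 (SE 0.20), 0.26 for ESM1 (SE 0.40), 0.025 for NSP5 and 0.0027 for ESP. Without the 4 low-weight arrays it was 0.025 for PEN2, -0.48 for ESM1, 0.21 for NSP5 and -0.026 for ESP, so the sign turned for PEN2, ESM1 and ESP, and none was called.

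**Figure D2:**
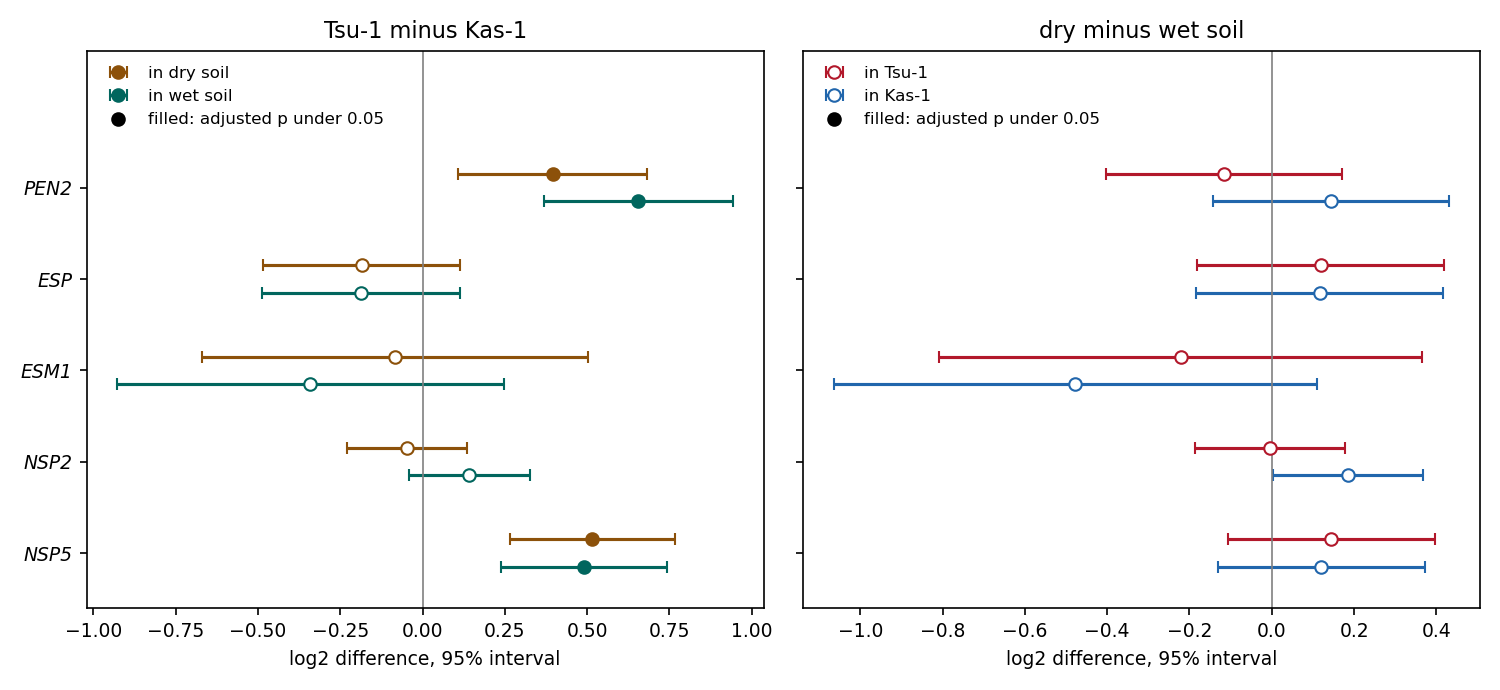
Log2 differences with 95% intervals for each gene, Tsu-1 over Kas-1 and dry over wet, with filled points for an adjusted p under 0.05. Tsu-1 over Kas-1 is drawn for dry and for wet soil, and dry over wet for Tsu-1 and for Kas-1. PEN2 and NSP5 are filled for Tsu-1 over Kas-1 in both soils, and no point is filled for dry over wet. NSP2 comes from the fit without a filter.

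The order of the group means differed by gene. For PEN2 it was wet Tsu-1 (11.38), dry Tsu-1 (11.27), dry Kas-1 (10.87) and wet Kas-1 (10.73). Between neighbours in this order, only the step between dry Tsu-1 and dry Kas-1 passed the test (limma adjusted p = 0.0341). That call was lost in some fits with 1 array left out. The wet groups, the ends of this order, also differed (limma adjusted p = 0.00128). For NSP5 it was dry Tsu-1 (8.41), wet Tsu-1 (8.26), dry Kas-1 (7.89) and wet Kas-1 (7.77), where the drying steps did not pass and the middle step was not tested as a contrast. ESP ran from dry Kas-1 (13.06) through wet Kas-1 (12.95) and dry Tsu-1 (12.88) to wet Tsu-1 (12.76), with spreads that overlapped throughout. ESM1 was highest in wet Kas-1 (9.59), then wet Tsu-1 (9.25), dry Kas-1 (9.11) and dry Tsu-1 (9.03), also with overlap.

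Within groups, PEN2 and ESM1 were negatively correlated across arrays. Over the 24 deviations from group means, Pearson's r was -0.704 and Spearman's rho -0.747 (permutation within groups, two-sided, p = 2.6e-04 and 2.2e-04, adjusted over 20 relations 0.0026 and 0.0022). Leaving out the 2 arrays farthest in PEN2 gave -0.635. Of the 10 pairs of members, this was the only one to pass, and it did not pass without the 4 low-weight arrays (r = -0.586, adjusted p = 0.153). The 4 low-weight arrays lay above their group mean in PEN2 and below it in ESM1, while Tsu-1 dry 1, Tsu-1 wet 11 and Kas-1 dry 6 lay above it in both.

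The touch and wounding score moved with both genes. Its r with PEN2 was 0.77 (rho 0.782, permutation p = 3e-05, adjusted 6e-04, 0.708 without the 2 farthest arrays), and with ESM1 -0.71 (rho -0.66, p = 0.00194, adjusted 0.0129, -0.652 without the 2 farthest). Without the 4 low-weight arrays these were 0.693 (adjusted p = 0.0898) and -0.438 (adjusted p = 0.418). NSP5 had r = 0.46 with the score (adjusted p = 0.0982). The part of touch or handling in the covariation was not tested.

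**Figure D3:**
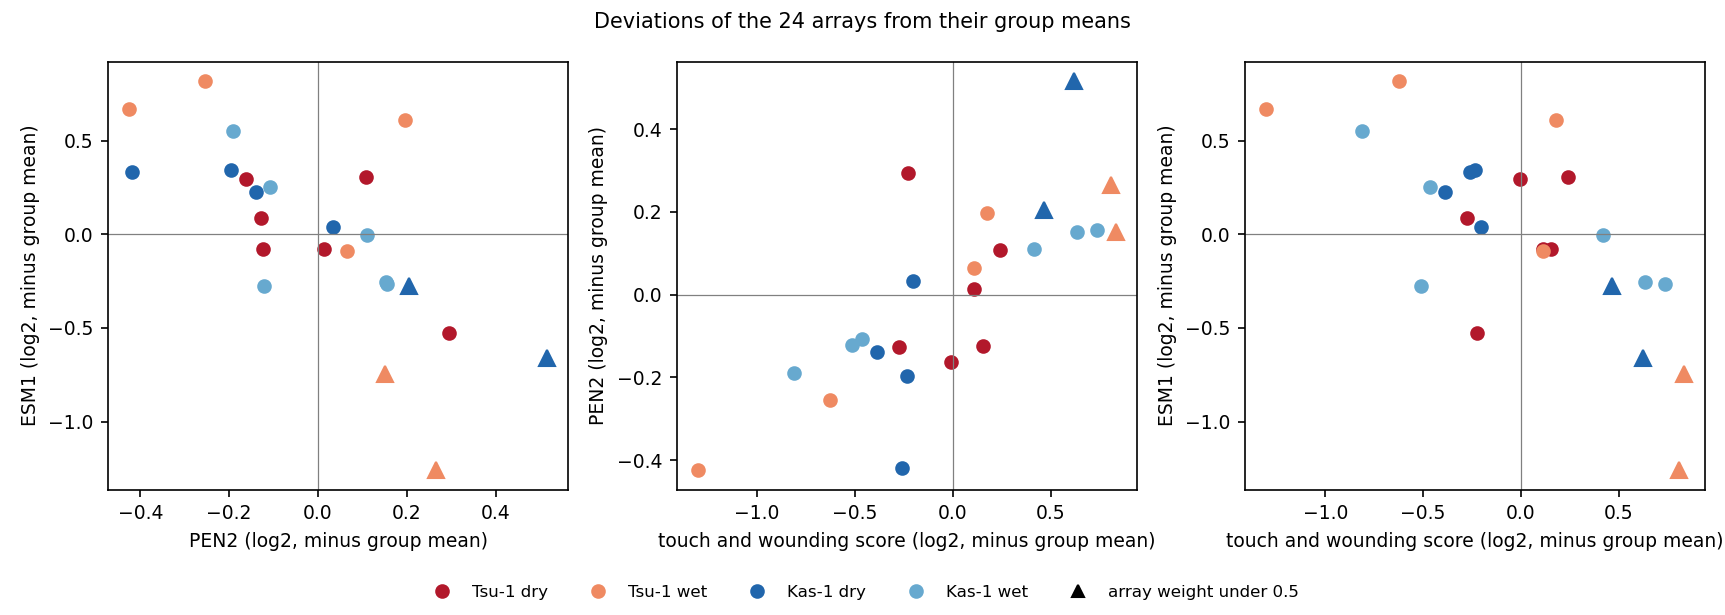
Deviations of the 24 arrays from their group means, in log2 units: PEN2 against ESM1, and the touch and wounding score against PEN2 and against ESM1. Points are coloured by group and triangles mark arrays of weight under 0.5. Over all 24 arrays r is -0.704 for PEN2 and ESM1, 0.77 for the score and PEN2, and -0.71 for the score and ESM1.

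The tested loci most like each member over the same 24 deviations were ERD15 (r = 0.954), MLO2 (0.949) and AT4G38550 (0.94) for PEN2, among 12304 loci. ERD15 is a dehydration-induced protein and MLO2 a powdery mildew susceptibility protein. ESP was closest to AT4G23670 (0.851), AT5G55620 (0.79) and PLAT1 (0.778). ESM1 was closest to CHL-CPN10 (0.933), a chloroplast co-chaperonin, GHS1 (0.922) and AT2G24060 (0.917), and NSP5 to TTL (0.736), HAT14 (0.717) and AT4G29950 (0.695). Every such r comes from the same 24 arrays and describes them only.

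Other genes of the system also differed between accessions, in an averaged comparison that called 47.7% of all tested loci. By soil, 30.1% of tested loci were called in wet soil and 30.5% in dry soil. MVP1 (AT1G54030), a myrosinase-associated lipase-like protein of endomembrane traffic, averaged 6.57 in dry Tsu-1 and 6.75 in wet Tsu-1, against 7.64 in dry Kas-1 and 7.92 in wet Kas-1. It was lower in Tsu-1 by a log2 difference of -1.12 (SE 0.066, limma adjusted p = 4.37e-12), and it was 1 of 8 listed specifier, myrosinase-binding and lipase-like genes in the table. The nitrilase NIT3, which turns nitriles into acids, was higher in Tsu-1 by 0.71 (adjusted p = 8.02e-05), while NIT4 differed by 0.58 and was not called (adjusted p = 0.0626). NIT4 was called without the 4 low-weight arrays (0.66, adjusted p = 0.00659) and with array weights (0.77, adjusted p = 0.00198). Both glucosinolate transporters were higher in Tsu-1, GTR1 by 0.78 (adjusted p = 0.0129) and GTR2 by 0.33 (adjusted p = 0.00314) as the mean of both soils. GTR2 differed by 0.56 in wet soil (adjusted p = 0.00141) and by 0.092 in dry soil (adjusted p = 0.604). GTR1 was called in neither soil alone (adjusted p = 0.0704 in wet and 0.132 in dry soil), though in dry soil it was without the 4 low-weight arrays (0.89, adjusted p = 0.0332).

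Of 18 other myrosinases and related glucosidases, 13 are in the table and 3 were tested. In the averaged comparison 1 was called higher and 1 lower in Tsu-1, beside 47.7% of all tested loci called in either direction. BGLU18, a glucosidase of endoplasmic reticulum bodies, was lower in Tsu-1, with a log2 difference of -1.25 (SE 0.45, limma adjusted p = 0.0247, and 0.0627 with arrays of consecutive numbers averaged), and BGLU25 was higher by 0.31 (adjusted p = 3.01e-04). By soil, BGLU25 differed by 0.43 in dry soil (adjusted p = 7.86e-04) and by 0.19 in wet soil (adjusted p = 0.101). BGLU18 was called in neither soil alone (adjusted p = 0.0819 in wet and 0.228 in dry soil), though in wet soil it was with array weights (adjusted p = 0.0206). BGLU33 differed by -0.13 in the averaged comparison and was not called. Among 4 partners of PEN2, GSTU13, a glutathione transferase of indole glucosinolate breakdown, was lower in Tsu-1 (-0.45, adjusted p = 0.0074). GSTU13 differed by -0.65 in dry soil (adjusted p = 0.012) and by -0.26 in wet soil (adjusted p = 0.313). Without the 4 low-weight arrays its wet-soil difference was -0.53 and called (adjusted p = 0.0144). The transporter PEN3 (-0.08) and the phytochelatin synthase PCS1 (0.08) were not called in the averaged comparison. CYP81F2, a cytochrome P450 that hydroxylates an indole glucosinolate on the way to the methoxylated form that PEN2 uses, differed by 0.97 in wet soil and by -1.06 in dry soil, Tsu-1 over Kas-1 (adjusted p = 0.0468 and 0.0311). Neither call held without the 4 low-weight arrays, and the interaction of -2.03 was not called (adjusted p = 0.46), though it was with array weights (adjusted p = 0.037).

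Of 11 markers of myrosin cells and guard cells, 7 were tested. OST1 (0.90), KAT2 (0.59) and ALMT12 (0.40) were higher in Tsu-1, while ICE1 (-0.36) and FAMA (-0.27), regulators of myrosin cell and guard cell identity, were lower (limma adjusted p from 2.37e-05 for OST1 to 0.00864 for ALMT12). The other 2 tested, SCRM2 (-0.063) and GORK (0.0055), were not called. Of all tested loci, 47.7% were called in this averaged comparison and 23.3% were called higher. The score over the 7 ran from 7.29 to 7.49 in dry Tsu-1 and 7.40 to 7.61 in wet Tsu-1, against 7.12 to 7.38 in dry Kas-1 and 7.16 to 7.38 in wet Kas-1. It averages markers that were higher in Tsu-1 with markers that were lower, so it does not measure the amount of either cell type. No listed gene passed the test for drying in any drying comparison.

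**Figure D4:**
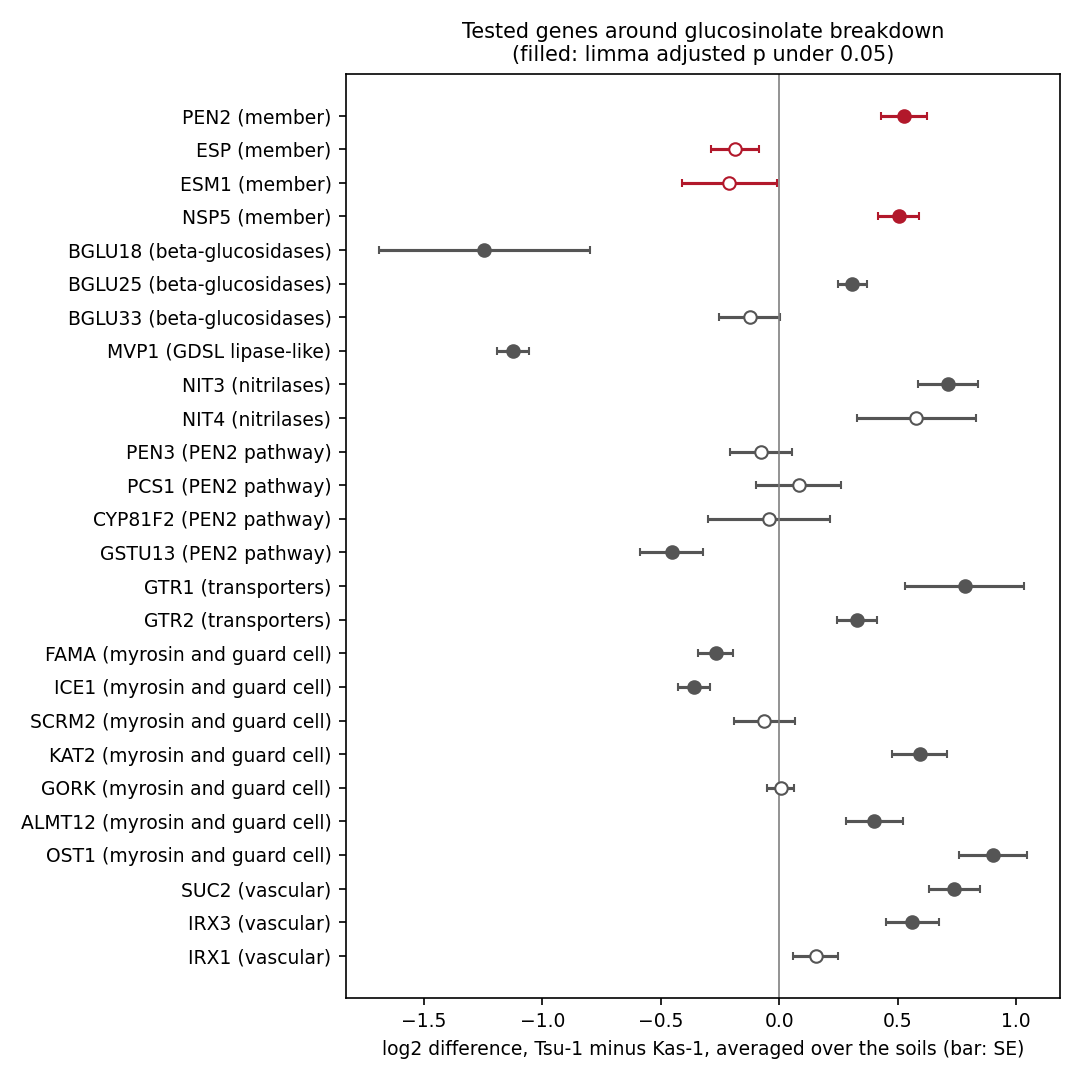
Log2 differences of Tsu-1 over Kas-1, as the mean of both soils and with SE, for the tested members and genes of the lists. Of the called genes, PEN2, NSP5, NIT3, both transporters, BGLU25, OST1, KAT2, ALMT12, SUC2 and IRX3 lie above 0. MVP1, BGLU18, GSTU13, ICE1 and FAMA are called and lie below 0. The touch and wounding genes and the mesophyll markers are not drawn.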

How the data were processed

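Leaf RNA of 24 arrays was measured. The authors deposited log2 expression values, 1 per locus and array, and the unit was inferred from their range, 3.12 to 14.2. MAS5 is named in the submitters' processing notes with neither role nor version, and the normalisation is not given in the sources used here. Loci with a mean above the 40th percentile were tested (12308 of 20514). Group means were fitted with limma 3.58.1 in R 4.3.3 with an intensity trend, over all 24 arrays, and p-values (two-sided) were adjusted by Benjamini and Hochberg over all tested loci, with a call at an adjusted p under 0.05. NSP2 was tested only in a fit without a filter. The number of arrays limits the precision. Within-group correlations used 100000 permutations within groups.

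All members are named. List genes are named where called, up to 6 per list, and for each tested member the 3 loci with the highest correlation. NIT4, BGLU33, PEN3, PCS1, IRX1, XCP1, RCA, PSBO1, SCRM2 and GORK were named after their values were seen. Members and lists were chosen with earlier results of these data known. Names came from the RefSeq gene table, which matched 20290 loci. The procedure was tested on simulated data. Alternatives were normalisation, filter, empirical Bayes options, array weights, averaged arrays, a block and left-out arrays.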

Additional observations from a re-analysis of the deposited data

Results flagged for a closer look

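The 5 genes were checked in each of the 4 groups, 20 checks in all, and 2 of them, both for ESP, found an array far from the others, where chance gives about 1 in 20. In dry Tsu-1, array 4 had 12.06 against 12.83 for the nearest array and 13.16 at the other end, a gap of 0.696 of the group's range. In dry Kas-1, array 3 had 13.27 against 13.05 for the nearest and 12.98 at the other end, a gap of 0.759 of the range. Without Tsu-1 dry 4, the ESP difference between accessions in dry soil was -0.022, against -0.19 with it, and neither was called. Without Kas-1 dry 3 it was -0.14.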

How the results depend on the processing

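Between accessions, PEN2 and NSP5 remained called in the averaged and wet comparisons under every alternative run and with each of the 24 arrays left out. In dry soil the number of members called was 1 in place of 2, with PEN2 lost, when the fit held only the arrays compared (adjusted p = 0.0549), with Kas-1 dry 4 and 5 averaged (0.0847) and with consecutive numbers averaged (0.0797). With 1 array left out it ran from 1 to 2, and PEN2 was lost without Kas-1 dry 3, 4, 5 or 6 or Tsu-1 dry 1, 2 or 4. No member was called for drying or the interaction in any setting. The number of pairs of members that passed was 0 without the 4 low-weight arrays, against 1 with them. The labels do not say whether replicate numbers pair the samples. Same-numbered arrays of the accessions, as deviations from group means, correlated at -0.397 to 0.555, with 4 of 12 above 0.1 and 2 of 12 best with their own number. These correlations cannot decide it. With the number as a block, 2 members were called in each accession comparison and 0 for the interaction, and 5661 loci were called in the averaged comparison, against 5875. No paired analysis was possible for drying because the soils share no replicate number. Over all loci, averaged drying called 16 and 5 to 102 under the alternatives (2 to 25 with 1 array left out), drying in Tsu-1 called 1 and 0 to 45 (0 to 7), drying in Kas-1 called 9 and 0 to 1003 (0 to 18), and the interaction called 0 and 0 to 353 (0 to 3). The highest counts came with array weights or without the low-weight arrays. The cause was not tested.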
